A study of Mus musculus with 9 samples.

Results

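The nuclear factor I family of mouse has 4 genes, Nfia, Nfib, Nfic and Nfix, and all 4 were found by their gene names among 23361 genes in the deposited table. The table covers RNA of cells sorted by flow cytometry from mouse skin whose label is melanocyte stem cells, a resting population in the hair follicle that replenishes pigment cells. It holds 9 poly(A)-selected libraries, 3 each from Quiescent, Active and UVB, the last named for a band of ultraviolet light. All mice carried a genotype named TBPT and were 10 weeks old, so no group without that genotype enters any comparison, and the meaning of that name is not known here. Depilation by a chemical and UVB exposure are both listed for every library. The labels thus do not tell which group was depilated, nor whether each library is a separate animal, and p-values below speak only of the variation among these 9 libraries.

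Nuclear factor I proteins bind DNA as dimers through a conserved N-terminal domain, at the palindrome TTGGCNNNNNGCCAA or at one arm of it, and they can activate or repress a gene. In hair follicle stem cells NFIB and NFIX help to keep the stem cell programme in place. There NFIB also restrains the neighbouring melanocyte stem cells by holding down the gene of endothelin 2, a secreted signal to the pigment lineage. NFIA and NFIB drive the formation of glia, NFIX acts in muscle and neural progenitors, and NFIC is needed for tooth roots.

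The libraries held 21045070 to 35131778 fragments assigned to genes. Of all genes, 15078 had enough fragments to be tested, the 4 family members among them. Levels are given in CPM, which is fragments per 1000000 of a library total scaled by TMM, and a group is summarised by its mean ± SD (n = 3). The label was checked against marker lists. The 8 melanocyte markers summed to 74.3 to 120.0 CPM in the Quiescent libraries, 7653 to 12452 in Active and 842 to 1026 in UVB. The 8 dermal fibroblast markers summed to 339415 to 460416 CPM in Quiescent, 4988 to 6277 in Active and 22795 to 35404 in UVB. Of the Quiescent sums Mitf made 47.3, 53.8 and 64.0 CPM in replicates 1 to 3. Dct, of the same list, stood at 18.5, 32.2 and 2.07 CPM there, from 474, 540 and 35 fragments. Sox10 stood at 3.99, 2.21 and 0.295 CPM, from 102, 37 and 5 fragments. The data thus go against the label for the Quiescent libraries. In every UVB library too the fibroblast sum lay far above the melanocyte sum, though the melanocyte sum was above that of every Quiescent library. The label is thus in doubt for UVB as well, and cells are called by their group name below. Xist, the X-inactivation transcript, had 23353 to 30356 fragments in the UVB libraries and 4 to 12 in all others, while 4 Y-linked genes together had 0 to 2 in UVB and 4106 to 5591 in the others. Sex and UVB therefore cannot be told apart in any comparison of UVB below.

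Active was first compared with Quiescent. Nfia and Nfix were lower in Active, Nfix by 6.12-fold and Nfia by 3.44-fold, and Nfib and Nfic did not pass the test. The count of members past an adjusted p of 0.05 was 2 lower and 0 higher, where 58.3% of all tested genes passed in either direction, 29.2% of them lower and 29.1% higher. With this many genes called, a count of 2 of 4 is near the background. The median log2 fold change was -1.14 over the members and 0.01 over all genes tested.

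Nfix, known for its part in muscle and in the quiescence of neural stem cells, stood at 185, 167 and 148 CPM in Quiescent replicates 1 to 3, at 24.3, 23.0 and 34.6 in those of Active, and at 62.4, 47.6 and 66.9 in those of UVB. Every Quiescent library lay above every UVB library, and every UVB library above every Active library. The mean fell from 167 ± 18.2 CPM in Quiescent to 27.3 ± 6.35 in Active, for which edgeR's quasi-likelihood test gave a log2 fold change of -2.61 ± 0.20 (SE) and a Benjamini-Hochberg adjusted p of 1.4e-05.

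Nfia, a driver of glial fate, stood at 148, 149 and 179 CPM in Quiescent, 42.5, 47.8 and 48.0 for Active, and 73.1, 76.7 and 60.3 for UVB. Its groups again did not overlap and lay in the same order as for Nfix. Its mean fell from 158 ± 17.7 to 46.1 ± 3.13 CPM between Quiescent and Active, with a log2 fold change of -1.78 ± 0.13 (adjusted p = 1.2e-05).

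Nfib, the member tied to hair follicle stem cells, stood at 133, 121 and 197 CPM in Quiescent, 97.7, 115 and 104 for Active, and 173, 199 and 141 for UVB. All Active libraries lay below all Quiescent libraries, but Quiescent replicate 3 stood well above the other Quiescent libraries. The means were 150 ± 40.6 CPM in Quiescent and 106 ± 8.79 for Active, and the log2 fold change of -0.51 ± 0.20 did not pass (adjusted p = 0.054). The value was -0.26 without Quiescent replicate 3 and -0.64 (adjusted p = 0.028) without Quiescent replicate 2. Scaling by library size alone gave 0.26 (adjusted p = 0.21), a setting that moves the median of all genes upward. Relative to the median of all genes the value was -0.51 with TMM and -0.50 with library size alone.

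Nfic, the member of tooth root formation, stood at 167, 170 and 116 CPM in Quiescent, 183, 192 and 213 for Active, and 241, 290 and 152 for UVB. Active libraries lay above Quiescent libraries without overlap, and UVB libraries spread over both ranges. The means were 151 ± 30.1 CPM in Quiescent and 196 ± 15.2 in Active, with a log2 fold change of 0.37 ± 0.24 (adjusted p = 0.20). Scaling by library size alone gave 1.11 (adjusted p = 0.0038).

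Between Active and Quiescent the libraries did not overlap for any member, 3 lower and 1 higher in Active, where 32.7% of all tested genes were lower and 33.5% higher without overlap. The scaling bears on these values because it moves all genes together. With library size alone the median over all genes tested rose to 0.76 for Active against Quiescent and to 0.74 for UVB against Quiescent. Relative to that median, the log2 fold changes for Active against Quiescent were -2.63 for Nfix, -1.78 for Nfia, -0.50 for Nfib and 0.35 for Nfic.

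**Figure D1:**
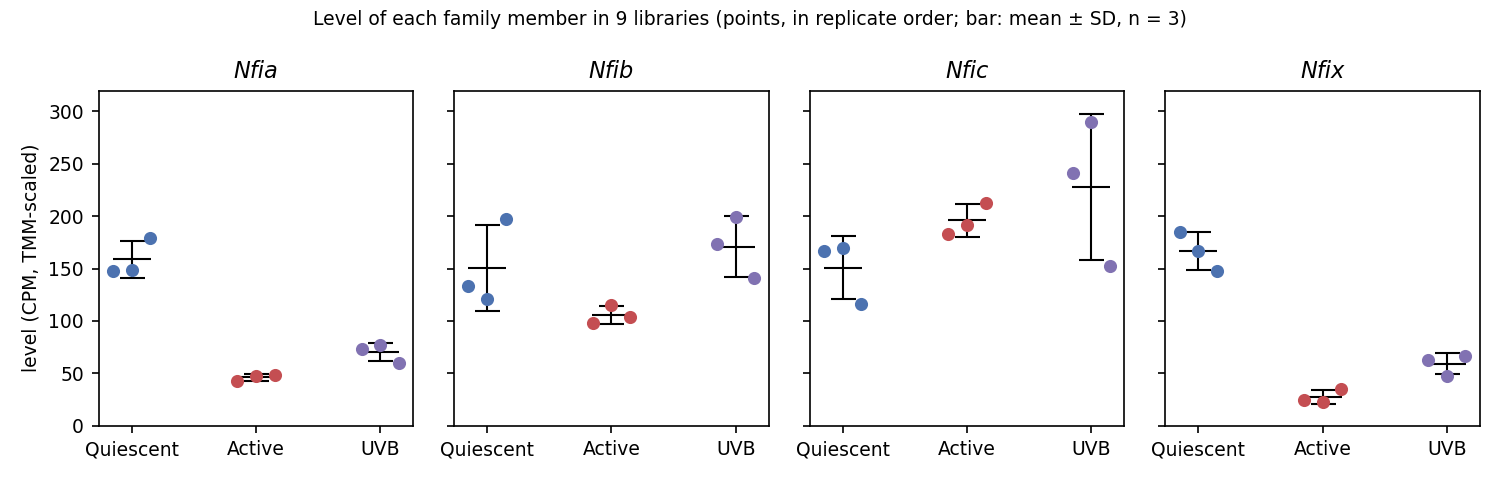
CPM of Nfia, Nfib, Nfic and Nfix in each of the 9 libraries, a panel per gene, with points for libraries in replicate order and bars for the group mean ± SD (n = 3). Nfix falls from a mean of 167 in Quiescent to 27.3 in Active, with UVB between at 58.9, and Nfic has its widest spread in UVB.

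UVB was next compared with Quiescent. Nfix and Nfia were again lower, by 2.83-fold and 2.26-fold, and Nfib and Nfic did not pass. Of the 4 members 2 were called lower and 0 higher, where 49.0% of all tested genes were called, 23.2% of them lower and 25.8% higher. For Nfix the mean was 58.9 ± 10.1 CPM in UVB, with a log2 fold change of -1.50 ± 0.19 (adjusted p = 3.2e-04). For Nfia it was 70.0 ± 8.60 CPM, with a log2 fold change of -1.18 ± 0.13 (adjusted p = 1.4e-04). The UVB libraries of both genes lay below all Quiescent libraries, and those of Nfib and Nfic overlapped them. Without overlap, 27.4% of all tested genes were lower and 30.2% higher in UVB.

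The mean of Nfib in UVB was 171 ± 29.4 CPM, and its log2 fold change against Quiescent was 0.19 ± 0.20 (adjusted p = 0.47). Nfic had a mean of 228 ± 70.3 CPM in UVB and a log2 fold change of 0.59 ± 0.24 (adjusted p = 0.067). UVB replicate 3, at 152 CPM, lay within the Quiescent range for Nfic, and without it the log2 fold change was 0.82 (adjusted p = 0.0070). Library size alone gave 0.93 for Nfib (adjusted p = 0.0014) and 1.30 for Nfic (adjusted p = 0.0019), and relative to the median of all genes under that scaling these were 0.18 and 0.56.

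UVB was last compared with Active, the pair of groups with similar TMM factors. Nfix was 2.16-fold higher in UVB, Nfib 1.62-fold and Nfia 1.52-fold, so 3 of 4 members were called higher and 0 lower. Among all tested genes 24.0% were called, 14.8% higher and 9.19% lower. The median log2 fold change was 0.65 over the members and 0.01 over all genes tested. Libraries of these 3 members did not overlap between UVB and Active, as was so for 25.0% of all tested genes in that direction.

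The log2 fold change of UVB against Active was 1.11 ± 0.19 for Nfix (adjusted p = 0.0054), and it passed without each of the 9 libraries in turn. Nfia gave 0.60 ± 0.13 (adjusted p = 0.012), which rose to 0.052 without Active replicate 1. Nfib gave 0.69 ± 0.20 (adjusted p = 0.036). Its call rests on single libraries: the adjusted p was 0.12, 0.086 and 0.11 without Active replicates 1, 2 and 3, and 0.094 and 0.098 without UVB replicates 1 and 2. Nfic gave 0.22 ± 0.24 (adjusted p = 0.54), and without UVB replicate 2 the difference was gone, at -0.0009.

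**Figure D2:**
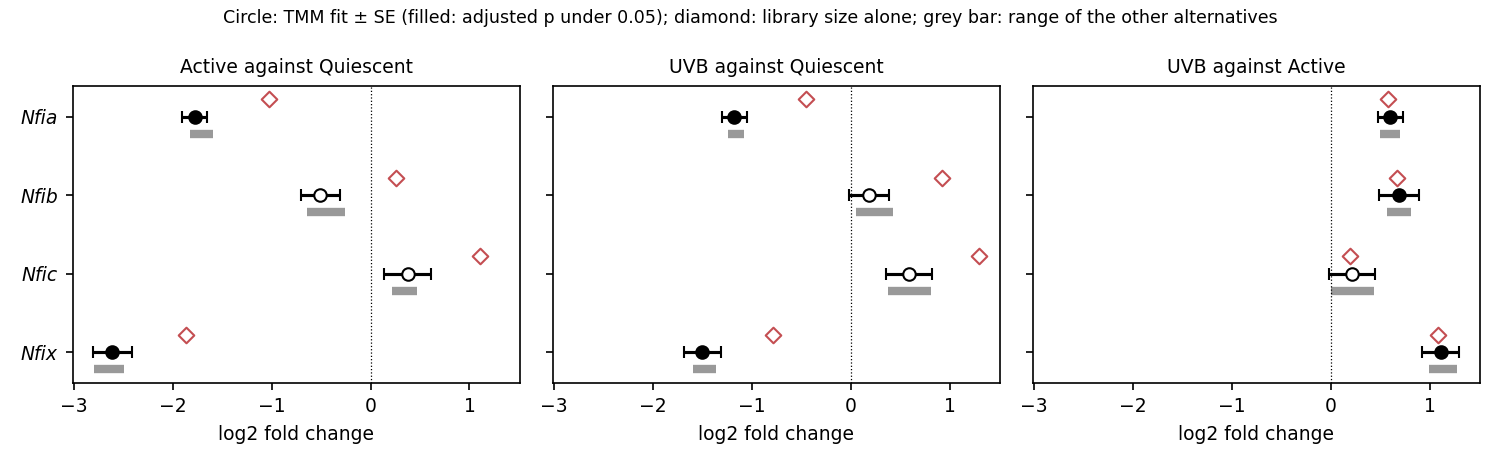
Log2 fold changes of the 4 members in the 3 comparisons, with circles and bars for edgeR's fit ± SE (filled where the adjusted p is under 0.05), diamonds for scaling by library size alone and grey bars for the range of the other alternatives. Nfix and Nfia lie below 0 in Active, at -2.61 and -1.78, under every setting drawn, and the diamond of Nfib lies above 0.

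The balance within the family was then read from FPKM, the authors' fragments scaled by transcript length and library total, which allow genes to be compared per length. In Quiescent, Nfix had the highest FPKM of the family in every library, 56.5 to 70.4, above Nfic at 18.5 to 26.7, Nfib at 13.9 to 22.8 and Nfia at 15.3 to 18.5. The ranges of these last 3 members overlapped. In Active, Nfic led in every library at 28.9 to 33.2 FPKM. Nfib at 11.3 to 13.4 and Nfix at 8.76 to 13 overlapped behind it, and Nfia lay below all of them at 4.42 to 4.99.

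In UVB, Nfic reached 23.2 to 46.4 FPKM, Nfix 18.3 to 24.6, Nfib 15.8 to 23.3 and Nfia 6.05 to 8.0. Nfic was highest in UVB replicates 1 and 2, and Nfix in replicate 3, so the ranges of the leading 3 overlapped and only Nfia stood apart below them. The order between genes rests on the transcript lengths the authors used. Fragments per FPKM imply a length for Nfix of 0.273 times that of Nfia, and 0.656 times for Nfic and 0.896 times for Nfib. Per fragment and not per length the members were close to each other in Quiescent, at means of 158 CPM for Nfia, 150 for Nfib, 151 for Nfic and 167 for Nfix, so the lead of Nfix there depends on length.

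Each member's share of the summed FPKM of the family does not depend on how libraries are scaled against each other. The share of Nfix was 55.0%, 52.9% and 48.5% over the Quiescent replicates, 17.1%, 15.2% and 20.6% over those of Active, and 26.5%, 19.1% and 35.3% over those of UVB. Its mean was 52.1 ± 3.29% in Quiescent, 17.6 ± 2.74% in Active and 27.0 ± 8.14% in UVB. Quiescent stood above both other groups without overlap, and Active and UVB overlapped (exact permutation test of the F statistic over 1680 assignments, p = 0.0071, Benjamini-Hochberg adjusted over the 4 members p = 0.014).

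The share of Nfic was 20.8%, 22.5% and 15.9% in Quiescent, 53.7%, 52.9% and 52.7% for Active, and 42.6%, 48.3% and 33.3% for UVB. These groups did not overlap, and Nfic took the place of Nfix as the largest share in Active (exact permutation p = 0.0036, the smallest this design can give, adjusted p = 0.014). The share of Nfia was 13.6 ± 2.02% in Quiescent, 8.22 ± 0.434% in Active and 8.50 ± 0.177% in UVB (exact permutation p = 0.014, adjusted p = 0.019). That of Nfib was 14.5 ± 4.45%, 21.1 ± 2.16% and 23.1 ± 1.01% (exact permutation p = 0.046, adjusted p = 0.046). The Nfib share lost the threshold in 8 of the 9 fits that left out 1 library, with adjusted p-values of 0.014 to 0.089 over the 9.

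The summed FPKM of the family was 121 ± 6.23 in Quiescent, 58.2 ± 4.66 in Active and 84.5 ± 13.5 in UVB. Its libraries lay at 128, 119 and 116 in Quiescent, 53.8, 57.7 and 63.1 for Active, and 87.9, 96.0 and 69.7 for UVB, without overlap. These sums carry the authors' scaling between libraries. By mean FPKM, Nfix stood at the percentile 91.2 of tested genes in Quiescent, 59.7 in Active and 77.9 in UVB. Nfic stood at 78.4, 83.2 and 86.6, Nfib at 72.3, 63.8 and 75.3, and Nfia at 71.2, 42.3 and 48.7.

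**Figure D3:**
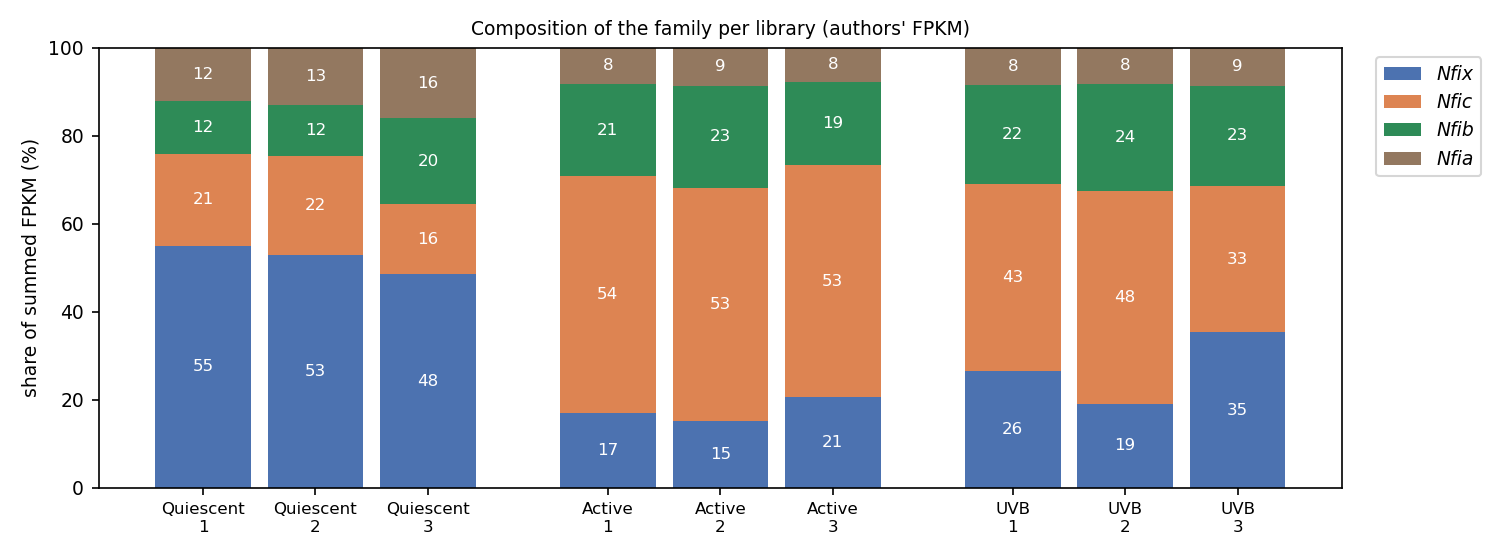
Share of each member in the summed FPKM of the family, in percent, as stacked bars for each of the 9 libraries. Nfix takes 48.5 to 55.0% in Quiescent and 15.2 to 20.6% in Active, and Nfic 15.9 to 22.5% and 52.7 to 53.7%.

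Summed markers of fibroblasts and of endothelial cells lay in the group order of Nfix and Nfia without overlap, and sums of the other marker lists did not. The summed fibroblast markers were 68.7-fold higher in Quiescent than in Active and 13.5-fold higher than in UVB, and 8 of 8 were called lower in Active, the order in which Nfix and Nfia lay. In UVB against Active, where the fibroblast sum was 5.08-fold higher and 8 of 8 markers were called higher, Nfix, Nfia and Nfib were higher too. Within UVB the fibroblast sums were 29992, 22795 and 35404 CPM in replicates 1 to 3, the order of Nfix there, while Nfia and Nfib ran in the opposite order. Within Quiescent they were 393257, 339415 and 460416 CPM, the order of Nfib, while Nfix was lowest in the replicate with the highest sum.

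The melanocyte markers were 97.2-fold higher in Active than in Quiescent, with 8 of 8 called, opposite to Nfix and Nfia. Endothelial markers summed to 298 to 403 CPM in Quiescent, 17.5 to 21.9 in Active and 120 to 223 in UVB, with 6 of 6 lower in Active. Smooth muscle and pericyte markers summed to 751 to 1008, 175 to 217 and 145 to 256 CPM, with 5 of 6 lower in Active. Keratinocyte markers summed to 137 to 2082, 958 to 1378 and 587 to 924 CPM with 1 of 8 higher in Active, and Schwann cell markers to 647 to 678, 744 to 1090 and 919 to 1143 CPM with 1 higher and 2 lower of 6. Immune markers summed to 106 to 647, 8.99 to 22.7 and 237 to 412 CPM with 1 higher and 2 lower of 6, and adipocyte markers to 89.6 to 121, 11.8 to 15.5 and 17.5 to 117 CPM with 1 lower of 1 tested. The part of other cells in the differences of the family was not tested. In such bulk libraries a change in the number of cells of a type and a change in RNA per cell cannot be told apart.

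**Figure D4:**
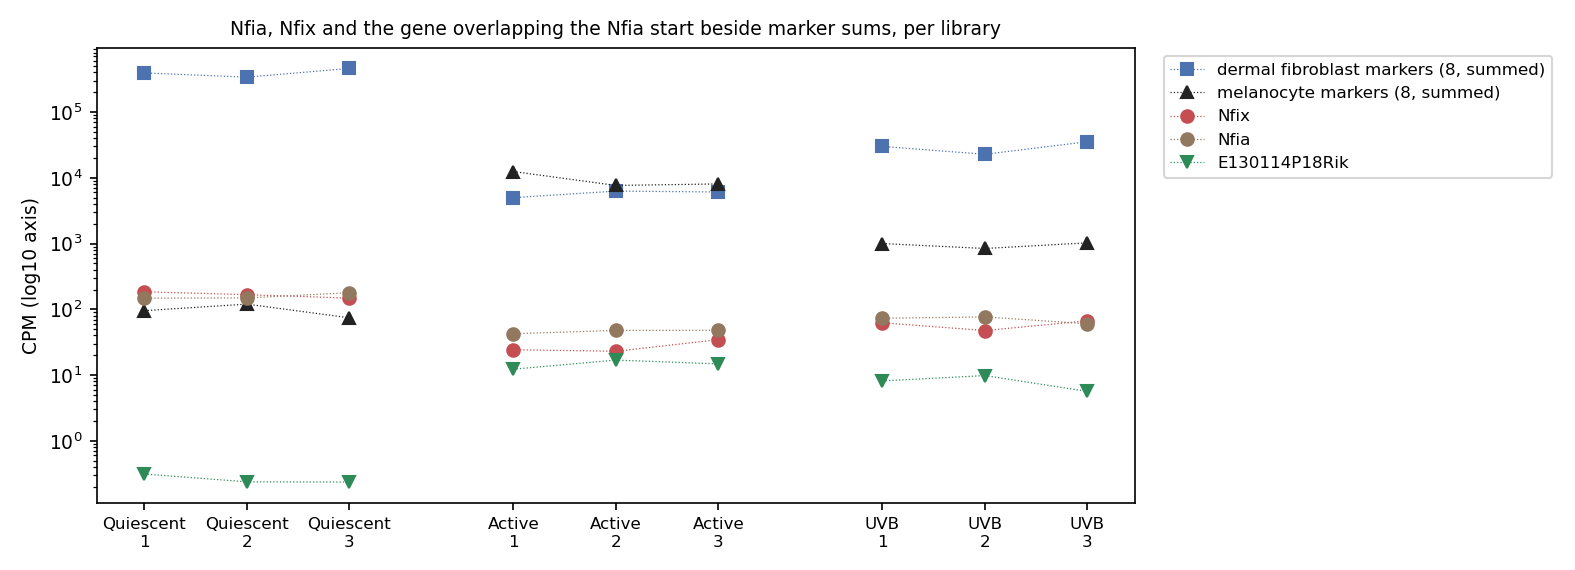
CPM on a log10 axis in each library for Nfix, Nfia, the gene E130114P18Rik at the Nfia start, and the sums of 8 fibroblast and 8 melanocyte markers. Nfix and Nfia lie in the group order of the fibroblast sum, which spans 4988 to 460416 CPM, and E130114P18Rik in the opposite order.

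The genes whose profile over the 9 libraries was most like a member were found by Pearson's r of log2 CPM among 10871 tested genes. Since the libraries form separate groups, r mostly reads the differences between groups, and all genes share the same libraries and scaling. For Nfix these were Vasn (r = 0.997), Gpr153 (0.995) and Pld2 (0.994), and Vasn stood at 160 ± 13.9 CPM in Quiescent, 16.0 ± 5.20 in Active and 39.2 ± 8.76 in UVB. For Nfia they were Ibtk (r = 0.997), Igfbp5 (0.993) and the collagen gene Col5a1 (0.992). Igfbp5, a binding protein of insulin-like growth factors, stood at 3096 ± 224 CPM in Quiescent, 85.5 ± 23.9 in Active and 327 ± 102 in UVB.

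Nfib was most like the collagen gene Col15a1 (r = 0.958), the DNA repair gene Rad50 (0.951) and the RNA exonuclease gene Xrn1 (0.948). Nfic was most like Phf2 (r = 0.944), a histone demethylase gene, the cyclin gene Ccnk (0.940) and Prrc2b (0.934). Between members r was 0.951 for Nfia and Nfix, which put Nfix at rank 278 in the order for Nfia and Nfia at rank 548 in that for Nfix. It was 0.511 for Nfia and Nfib, 0.417 for Nfib and Nfix, 0.054 for Nfib and Nfic, -0.477 for Nfia and Nfic and -0.491 for Nfic and Nfix. Between groups the profiles of Nfia and Nfix thus ran together and that of Nfic ran apart from both. Within UVB, Nfia and Nfix ran in opposite order over the replicates.

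The loci differ in size. In RefSeq (GRCm38.p6, the same assembly as mm10), Nfia spans chr4:97578066-98118876 on the plus strand and Nfib chr4:82290173-82506751 on the minus strand. Nfic spans chr10:81396191-81431919 and Nfix chr8:84704712-84801238, both on the minus strand. These spans are 540.8, 216.6, 35.7 and 96.5 kb, and GENCODE M21 gives 7, 7, 6 and 5 protein-coding transcripts. The values here are for whole genes and do not separate promoters or isoforms.

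Promoter windows, the 250 bases before a RefSeq start, were searched for the palindrome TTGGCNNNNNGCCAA, for its arm TTGGC, for CACATG, a core that the pigment cell factor MITF can bind, and for CANNTG, the E-box, on both strands. CACATG is itself a CANNTG match, and TTGGC lies within the palindrome. Of 4 members 3 matched the table, Nfia, Nfic and Nfix, with 6 windows, 4 of them of Nfix. All 6 lie inside the RefSeq spans of their genes, so they precede internal starts. The stretches before the outermost ends of the genes were not searched. The palindrome was in 0 of the 6 windows and in 0.0365% of 32851 windows of all genes. TTGGC was in 2 of 6, both of Nfix, and in 41.5% of all windows. CACATG was in 1 of 6, that of Nfia, and in 12.3% of all, and CANNTG was in 4 of 6 and in 66.2% of all. A match describes the letters and not a bound site. The windows below are shown because they belong to the members that fell in Active and hold such a match, in capitals (CACATG in Nfia, TTGGC or its reverse complement GCCAA in Nfix), each 5′ to 3′ on the strand of the gene.
Nfia, chr4:97581693-97581942, plus strand: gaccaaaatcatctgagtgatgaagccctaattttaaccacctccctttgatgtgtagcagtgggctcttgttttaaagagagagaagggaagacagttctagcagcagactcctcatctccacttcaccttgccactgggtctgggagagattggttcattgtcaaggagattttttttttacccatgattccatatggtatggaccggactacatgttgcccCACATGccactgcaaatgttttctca
Nfix, chr8:84775829-84776078, minus strand: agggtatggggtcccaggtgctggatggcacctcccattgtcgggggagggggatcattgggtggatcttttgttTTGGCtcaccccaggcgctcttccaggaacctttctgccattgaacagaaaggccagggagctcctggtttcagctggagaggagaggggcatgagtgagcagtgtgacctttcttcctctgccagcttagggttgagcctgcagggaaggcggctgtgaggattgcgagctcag
Nfix, chr8:84772876-84773125, minus strand: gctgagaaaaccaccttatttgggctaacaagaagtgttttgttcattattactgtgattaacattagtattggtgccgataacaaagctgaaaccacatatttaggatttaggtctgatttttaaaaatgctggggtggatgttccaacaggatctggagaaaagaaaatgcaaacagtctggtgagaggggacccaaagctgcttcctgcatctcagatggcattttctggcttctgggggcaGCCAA

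The Nfia window above lies in a stretch that 2 genes share. E130114P18Rik, on the minus strand at chr4:97567875-97584591, overlaps the start of Nfia by 6526 bases in RefSeq, and it was singled out after its values were seen. It stood at 0.313, 0.238 and 0.236 CPM in Quiescent, from 8, 4 and 4 fragments, at 12.3, 16.9 and 14.8 for Active, and at 8.16, 9.83 and 5.64 for UVB. The groups did not overlap, and their order was opposite to that of Nfia. The log2 fold change was 5.76 ± 0.32 in Active (adjusted p = 4.1e-06) and 4.86 ± 0.31 in UVB (adjusted p = 1.3e-05) against Quiescent, and -0.90 ± 0.24 for UVB against Active (adjusted p = 0.026). Libraries came from a directional kit, but whether the counting used strand was not stated, so fragments of the shared stretch may not have been told apart. At the other end of Nfix, Lyl1 on the plus strand at chr8:84701423-84704716 meets the RefSeq gene. The GENCODE M21 model of Nfix starts at 84699876 and spans all of the GENCODE model of Lyl1. Fragments there may likewise not have been told apart. Lyl1 stood at 3.60, 22.6 and 1.24 CPM in Quiescent, 0.561, 0.725 and 0.368 in Active, and 5.14, 5.69 and 12.5 in UVB, below Nfix in every library. By edgeR's test it was 13.9-fold higher in UVB than in Active (adjusted p = 0.027), the direction of Nfix there.

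Genes linked to the family were read from lists. Beside their counts, 29.1% of all tested genes were higher and 29.2% lower in Active relative to Quiescent, 25.8% and 23.2% in UVB against Quiescent, and 14.8% and 9.19% in UVB against Active. Of 14 tested hair follicle stem cell factors, 3 were higher and 4 lower in Active relative to Quiescent, with a median log2 fold change of -0.38. Against Quiescent, UVB had 2 higher and 2 lower, and against Active 5 higher and 1 lower. Cd34, a surface marker of bulge stem cells that fibroblasts and endothelial cells also carry, stood at 3457 ± 1108 CPM in Quiescent, 15.3 ± 2.67 in Active and 144 ± 75.4 in UVB (log2 fold change of Active against Quiescent -7.82, adjusted p = 6.3e-06). Foxc1, a factor that keeps these stem cells at rest, was higher in Active, at 17.8 ± 5.59 against 3.62 ± 1.04 CPM (log2 fold change 2.29, adjusted p = 2.6e-04). Tcf7l1, a repressor of Wnt targets, was lower in Active by 1.14 on the log2 scale, at 24.8 against 54.6 CPM (adjusted p = 1.8e-04).

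Edn2, the endothelin gene that NFIB holds down in hair follicle stem cells, stood at 0.117, 0.894 and 0.0591 CPM in Quiescent, 0.717, 0.544 and 0.327 for Active, and 0.473, 0.137 and 1.15 for UVB. The groups overlapped, and no comparison passed the test, with log2 fold changes of 0.62 ± 0.99 (adjusted p = 0.61) in Active and 0.76 ± 0.99 (adjusted p = 0.55) in UVB against Quiescent. A difference in Edn2 was not detected, at 1 to 34 fragments per library, which is near the floor. The libraries are not labelled as hair follicle stem cells, so the action of NFIB on Edn2 was not tested. Of the 9 endothelin and stem cell factor genes, 1 was higher and 5 lower in Active relative to Quiescent. In UVB 1 was higher and 2 lower against Quiescent, and 3 were higher and 1 lower against Active. Kitl, the ligand of the KIT receptor, stood at 38.6 ± 3.67 CPM in Quiescent, 26.9 ± 2.85 in Active and 52.8 ± 13.8 in UVB, and was 1.96-fold higher in UVB than in Active (adjusted p = 0.0087). Ednra, an endothelin receptor, stood at 21.7 ± 6.26, 4.13 ± 0.832 and 37.2 ± 25.7 CPM, and was 5.23-fold lower in Active than in Quiescent (adjusted p = 0.0023). Kit, the 1 gene higher in Active, is also in the melanocyte list.

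Of 10 tested NFI-linked genes of glia and neural progenitors, 5 were higher and 4 lower in Active relative to Quiescent, and 5 were higher and 5 lower in UVB. UVB against Active gave 2 higher and 1 lower. Fabp7, a fatty acid binding protein of glial progenitors, stood at 0.230 ± 0.154 CPM in Quiescent, 230 ± 56.0 in Active and 135 ± 29.3 in UVB (adjusted p = 1.6e-06 for Active against Quiescent). Ezh2, a histone methyltransferase gene that NFI factors repress in neural progenitors, was 7.13-fold higher in Active, at 87.7 ± 3.73 against 12.3 ± 1.22 CPM (adjusted p = 1.8e-05), and stood at 82.5 ± 27.3 CPM in UVB. Insc, a spindle orientation gene, was higher in Active too, by 6.09 on the log2 scale (adjusted p = 1.4e-06). Apcdd1, a Wnt inhibitor, was 14.0-fold lower in Active, at 37.0 ± 15.4 against 516 ± 141 CPM (adjusted p = 2.6e-05).

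Of 9 tested NFI-linked genes of muscle, bone and connective tissue, 1 was higher and 8 lower in Active relative to Quiescent, with a median log2 fold change of -3.13, where 29.2% of all tested genes were lower and 29.1% higher. In UVB 1 was higher and 6 lower against Quiescent, and 4 were higher and 0 lower against Active. Nfatc4 stood at 107 ± 13.4 CPM in Quiescent, 1.34 ± 0.0859 in Active and 19.0 ± 12.8 in UVB. Mef2c, named after its values were seen as the 1 gene that rose, stood at 68.0 ± 9.12, 119 ± 16.7 and 118 ± 14.1 CPM. Col1a2, which fell by 7.46 on the log2 scale in Active, is also in the fibroblast list.

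Among 11 tested partners and regulators of the family, 3 were higher and 2 lower in Active relative to Quiescent, the same counts held for UVB, and 3 were higher and 0 lower in UVB than in Active. Smad3, a mediator of TGF-beta signals, stood at 57.3 ± 4.0 CPM in Quiescent, 31.3 ± 2.58 in Active and 50.8 ± 8.0 in UVB, and was 1.83-fold lower in Active (adjusted p = 5.0e-04). Pou3f2, a POU factor of neural and melanoma cells, had 2 fragments in all Quiescent libraries together and a mean of 0.914 ± 0.51 CPM in Active and 1.17 ± 0.401 in UVB.

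Other CCAAT and C/EBP factors bind related letters with unrelated domains. Of 8 tested, 3 were higher in Active than in Quiescent, the NF-Y genes Nfya, Nfyb and Nfyc, and 3 lower, Cebpa, Cebpb and Cebpg, while Cebpd and Cebpz did not pass. Library size alone called 4 higher and 1 lower. In UVB 2 were higher and 3 lower against Quiescent. Against Active, edgeR's test called 0 of 8, with 2 at an unadjusted p under 0.05, and DESeq2 called 2 higher. Nfya stood at 46.7 ± 4.18 CPM in Quiescent and 96.4 ± 9.97 in Active (adjusted p = 2.8e-04). Cebpb stood at 218 ± 71.7 and 26.0 ± 6.45 CPM (adjusted p = 3.2e-04).

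**Figure D5:**
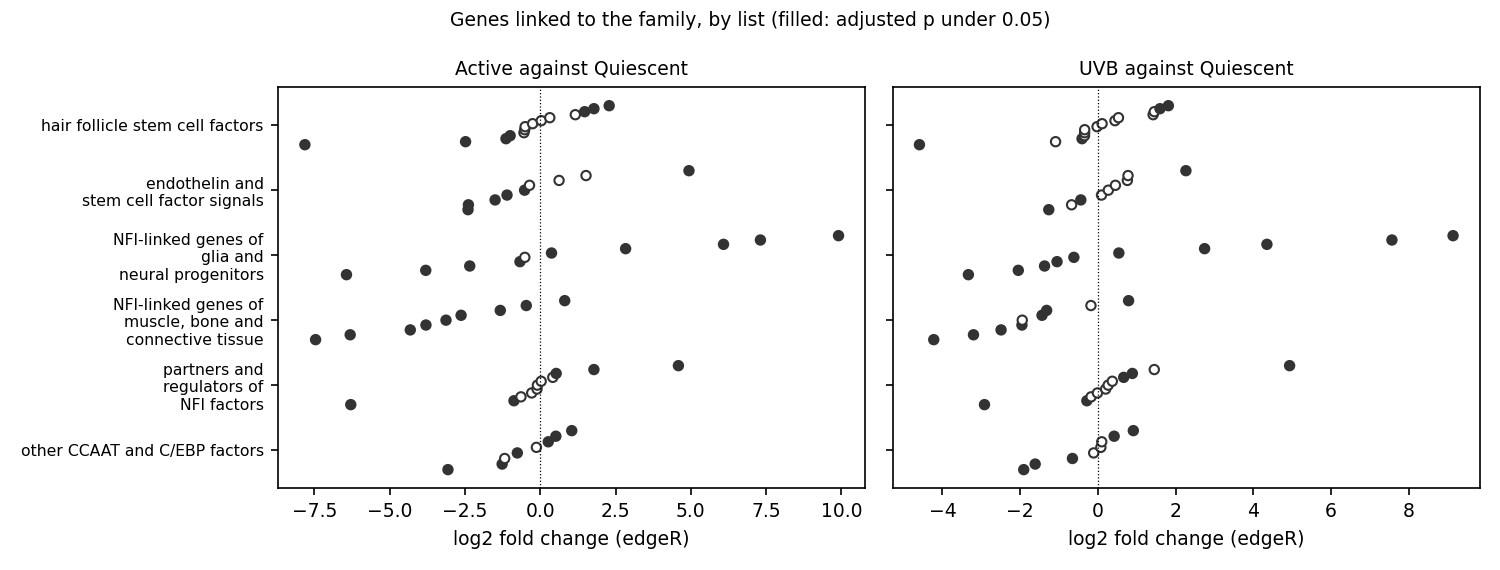
Log2 fold changes from edgeR for the tested genes of the 6 lists linked to the family, for Active and for UVB against Quiescent, a point per gene, filled where the adjusted p is under 0.05. In Active the list of muscle, bone and connective tissue has 8 genes below 0 and 1 above among its filled points, and the list of glia and neural progenitors has points on both sides.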

How the data were processed

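RNA was measured in 9 libraries, grouped by the labels. The submitters' processing notes name cutadapt 1.8, TopHat2 2.0.13, Cuffdiff 2.2.1 and the build mm10; how they were set, the annotation and strand use were not stated. The deposited estimated counts are fragments per gene and library, per the file headers, and every value of the members was whole. The authors' scaled fragments, a signal in the deposited table, were used to check its scaling, to find the implied lengths and in an alternative fit by limma. The authors' FPKM values divide those by transcript length and library total, so a level per length depends on the length they assumed.

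Estimated counts were rounded and tested by quasi-likelihood F in edgeR 4.0.16 under R 4.3.3 (TMM scaling, group means, all 9 libraries together, SE as the log2 fold change over the square root of F). The filter filterByExpr removed 8283 genes. P-values are two-sided and were adjusted by Benjamini-Hochberg over 15078 genes, with a threshold of 0.05. Quiescent had TMM factors of 0.660 to 0.748 and the other groups 1.163 to 1.225, and the biological coefficient of variation was 0.28. Shares of the summed FPKM were tested by exact permutation of libraries, with an F statistic over all groups together. Tests were tried on simulated data.

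The members, 6 gene lists and 8 marker lists were chosen with earlier results of these data known. Named list genes are up to 4 per list with the smallest adjusted p, plus genes a result turns on, with 1 such gene not reported here, and for each member the 3 genes with the highest r among those with a mean log2 CPM of at least 2, predicted genes left out. Promoters are from RefSeq (GRCm38.p6). Alternatives were other scalings, DESeq2 1.42.0, other filters, only the 2 groups compared, a replicate block and each library left out. Further alternatives used limma 3.58.1 on log2(FPKM + 1), log2(FPKM + 0.1) and log2(scaled fragments + 1).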

Additional observations from a re-analysis of the deposited data

How the results depend on the processing

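The 4 calls of Nfia and Nfix against Quiescent, and that of Nfix in UVB against Active, kept direction and threshold under all 20 alternatives run, with log2 fold changes for Active against Quiescent of -1.83 to -1.03 for Nfia and -2.80 to -1.87 for Nfix. Scaling by library size alone gave 0.26 for Nfib and 1.11 for Nfic in Active against Quiescent, and 0.93 and 1.30 in UVB against Quiescent. That scaling leaves the median of all genes above 0. For Nfib in Active against Quiescent, upper quartile factors gave -0.50 (adjusted p = 0.048), DESeq2 -0.52 (0.037) and a filter of at least 50 counts in 3 libraries -0.53 (0.040). Per fragment and not per length, the shares of Active minus Quiescent were -13.0 points for Nfia, 4.33 for Nfib, 28.03 for Nfic and -19.4 for Nfix. The exact permutation test over all groups together, not of that difference alone, gave an adjusted p of 0.079 for Nfib and 0.0095 for the others.

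Leaving out 1 library at a time gave -0.64 to -0.26 for Nfib in Active against Quiescent and 0.38 to 0.82 for Nfic in UVB against Quiescent. In UVB against Active it gave 0.53 to 0.70 for Nfia, 0.57 to 0.81 for Nfib and -0.0009 to 0.44 for Nfic. Genes called there ran from 1452 to 4226, against 3612 with all libraries: 1806 without Active replicate 1, 1452 without Active replicate 2 and 1938 without UVB replicate 1. The gain of the Nfib share ran from 5.17 to 9.13 points. Fewer samples enter these fits.

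The labels do not say whether replicate numbers pair the libraries. Deviations from the group mean in same-numbered libraries had correlations of -0.171 to 0.231, over 0.1 in 3 of 9 pairs. Those of differently numbered libraries ran from -0.209 to 0.26. With so few libraries in a group this check cannot settle whether the numbers pair. With the replicate block Nfib in UVB against Active was 0.70 (adjusted p = 0.069). The shares of Active minus Quiescent were -5.42 points for Nfia, 6.56 for Nfib, 33.4 for Nfic and -34.5 for Nfix. Permuting within blocks leaves 216 assignments with a smallest p of 0.028. The exact permutation test over all groups together then gave the shares adjusted p-values of 0.11, 0.14, 0.056 and 0.056 in that order. It does not test the difference of Active and Quiescent alone.

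List counts were recomputed under alternatives chosen after seeing the data: 351 of 360 were within 1.5 times. Among the others, library size alone called 7 higher and 1 lower of the partners in Active and 9 and 1 in UVB, and 7 and 1 of the hair follicle factors in UVB. Totals within 1.5 times can still shift in direction: against Quiescent, library size alone called 2 higher and 3 lower of the endothelin list in Active and 3 and 0 in UVB, and 4 and 1 of the CCAAT list in both. For the hair follicle factors in UVB against Quiescent, DESeq2 and limma on log2(FPKM + 1) gave 4 higher and 3 lower. Leaving out Quiescent replicate 1 gave 1 and 1 for them. In UVB against Active, DESeq2 called 3 higher and 2 lower of the glial list, and 2 CCAAT factors were higher by DESeq2 and without UVB replicate 2. No depth limit was met for the members, which had 634 to 8479 fragments per library.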
